A study of Oryza sativa with 6 samples.

Results

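Cytochrome P450 genes were taken from the RNA-seq table of rice leaves as the genes whose Swiss-Prot description names a cytochrome P450. The rule gave 36 of 2995 listed genes, in 18 families and 20 subfamilies by the CYP numbers in those descriptions, and 9 families had a single gene. All 36 also carry the Pfam P450 domain in the deposited annotation, so the label holds at the level of the protein domain. Of the 36 descriptions, 12 come from rice proteins and 24 from another species (13 from Arabidopsis), and for these 24 the CYP number is that of the closest described protein. A further 29 listed genes have a P450 domain but are described by a function, such as abscisic acid 8'-hydroxylase, and are kept apart from the 36.

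Leaves of 2 lines were compared. PIF4v3m carries a CRISPR/Cas9 deletion of the v3 SNP, a single G in the promoter of OsPIL13, in the WYG7 background, and was taken to be the line that the paper calls PIL13v3m, a knock-down of this phytochrome-interacting bHLH factor. WYG7 is the unedited parent. OsPIL13 was not followed here, since no table used pairs its locus number with a listed gene, so the knock-down was not checked in these libraries. There were 3 libraries a line, and both lines were kept under fluctuating light combined with drought (FL-DS), so no library shows leaves outside this stress. The labels give pot-grown plants of 3 weeks, which conflicts with the later start of FL-DS in the paper's methods. The edited line is a single line, and neither separate plants behind the libraries nor the hour of collection are stated, so line and time of day cannot be told apart and the p-values below measure the spread between these libraries only.

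Cytochrome P450s are membrane-bound haem enzymes that insert oxygen into small molecules, with electrons that a P450 reductase passes to them. Plants have very many of them. They make and break down hormones such as brassinosteroids, gibberellins, abscisic acid and jasmonates, and they build lignin precursors, cuticle lipids and defence compounds such as the rice phytoalexins.

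Values are FPKM, fragment counts scaled to transcript length and library size. This unit allows for gene length, so levels of different genes can be set side by side. Fold changes are PIF4v3m minus WYG7 on log2(FPKM + 1), from limma with Benjamini-Hochberg adjustment over all listed genes, a scale on which changes of scarce transcripts look smaller than they are. In the deposited columns of the authors' comparison, every listed gene passes 2 limits, FDR under 0.01 and log2 fold change beyond 1 in size. These limits are read from the table and are not those in the paper's methods, so the table may be a part of the genes called there. It holds changed genes only, so the p-values are not independent evidence that a gene changed, and P450 genes outside the list were not analysed here. A lower value in leaf RNA can come from fewer cells of a type or from less RNA per cell, which cannot be told apart. Reads of closely related P450 genes may have been shared between them, since the treatment of multiply mapped reads is not given in the sources used here.

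In PIF4v3m leaves, 15 of the 36 P450 genes were higher than in WYG7 (45.8% of all listed genes were higher) and 21 were lower (54.1% of all listed genes were lower), at an adjusted p under 0.05. The share of the 36 was 41.7% higher and 58.3% lower, so the direction of the P450 genes was close to that of the list as a whole. By more than 2-fold on log2(FPKM + 1), 5 were higher (13.9%, beside 26.6% of listed genes) and 14 were lower (38.9%, beside 33.9%). Quantile scaling made this split 9 higher and 10 lower, and rescaling to a common total made it 8 higher and 13 lower. Such counts rest on the added 1 FPKM, since every listed gene passes 2-fold in the authors' comparison. A pseudocount of 0.1 FPKM gave 13 higher and 20 lower. The median log2 fold change was -0.51 over the 36 genes and -0.56 over the list. Among the genes that rose the median was 0.91 (1.08 in the list), and among those that fell it was -1.21 (-1.11 in the list). The values of the lines did not overlap for any of the 36 genes, as for 99.4% of listed genes. Adjusted p ran between 2.48e-06 and 0.0134.

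Levels covered a wide range. CYP89A2 (LOC4344671) was the most abundant in PIF4v3m, and CYP78A5 (LOC4350534) in WYG7. Summed over the 36 genes, FPKM was 188, 189 and 209 in PIF4v3m libraries and 287, 248 and 236 in WYG7 libraries, and 8 of the genes stayed under a mean of 1 FPKM in both lines. Among the WYG7 libraries, replicate 1 had a limma library weight of 0.459 (0.958 to 1.53 in the other 5 libraries), and it held the highest WYG7 value for 15 of the 21 lower P450 genes (71.4%, beside 55.0% of lower listed genes). Without it, 12 P450 genes were more than 2-fold lower and 6 more than 2-fold higher on log2(FPKM + 1). The 10 listed genes of leaf photosynthesis, taken as markers of leaf tissue, split into 5 higher and 5 lower (45.8% and 54.1% of all listed genes). Their summed FPKM was 6860 to 9150 in PIF4v3m and 13900 to 14600 in WYG7. One of them, the photosystem II 10 kDa polypeptide (LOC4342395), was near 1 FPKM in PIF4v3m, with 0.912, 1.54 and 1.26 FPKM there and 117, 116 and 93.2 FPKM in WYG7. Their part in the P450 values was not tested.

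**Figure D1:**
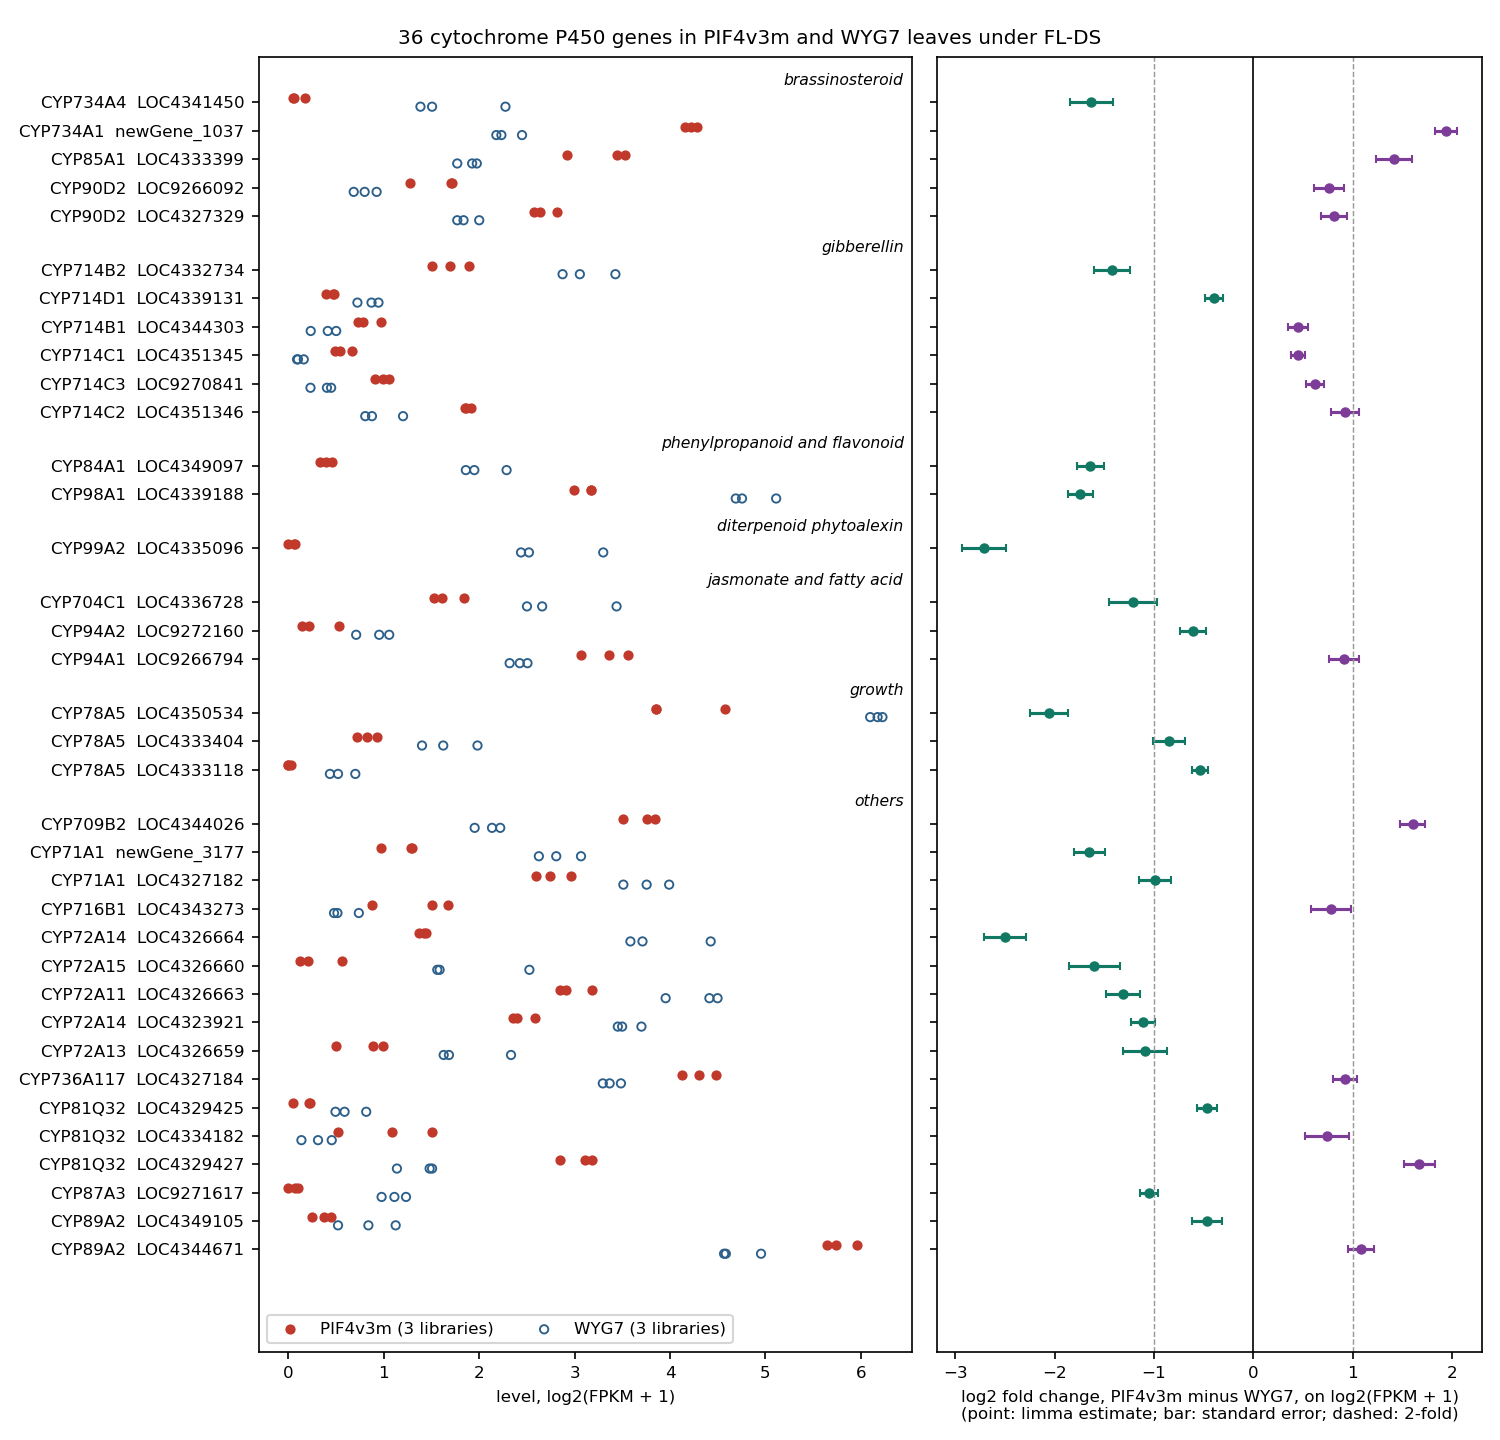
Levels and fold changes of the 36 P450 genes, grouped by the known role of the family. The left panel gives log2(FPKM + 1) for 3 PIF4v3m libraries (filled) and 3 WYG7 libraries (open), the right panel the log2 fold change of PIF4v3m minus WYG7 with its standard error, purple where higher and green where lower in PIF4v3m. The lines are apart for all 36 genes, as for 99.4% of listed genes, with fold changes between -2.71 (CYP99A2) and 1.94 (the new gene annotated CYP734A1).

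Brassinosteroids promote cell elongation, and 5 of the 36 genes belong to the families that make or inactivate them. Of these, 4 rose and 1 fell in PIF4v3m, beside 45.8% higher and 54.1% lower among all listed genes. CYP85A1 (LOC4333399, OsDWARF), the oxidase of a late step of rice brassinosteroid synthesis, had 6.57, 10.5 and 9.90 FPKM in PIF4v3m and 2.93, 2.80 and 2.41 FPKM in WYG7. All 3 PIF4v3m libraries lay above all WYG7 libraries (the lines were apart for 99.4% of listed genes). The log2 fold change was 1.41 ± 0.18 (SE, adjusted p = 9.64e-05). CYP90D2 (LOC4327329, the D2 gene), which acts in the same synthesis, had 6.06, 4.94 and 5.23 FPKM in PIF4v3m and 3.00, 2.57 and 2.41 FPKM in WYG7, a log2 fold change of 0.81 ± 0.13 (adjusted p = 0.000412). A second gene with the CYP90D2 description (LOC9266092) was less abundant, with 2.27, 1.42 and 2.28 FPKM in PIF4v3m and 0.607, 0.898 and 0.740 FPKM in WYG7. It also rose, by 0.76 ± 0.15 on the log2 scale (adjusted p = 0.00118).

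Enzymes of the CYP734A subfamily inactivate brassinosteroids, and the 2 listed genes of this subfamily went opposite ways. CYP734A4 (LOC4341450) had 0.0329, 0.0383 and 0.125 FPKM in PIF4v3m and 3.84, 1.84 and 1.61 FPKM in WYG7. It was near 0 in every PIF4v3m library, and its log2 fold change was -1.63 ± 0.22 (adjusted p = 0.00013) and -1.36 without WYG7 replicate 1. The other is a new gene of the authors (newGene_1037), described by the Arabidopsis CYP734A1, also known as BAS1, an enzyme that inactivates brassinosteroids in that species. It had 17.7, 16.9 and 18.5 FPKM in PIF4v3m and 4.46, 3.53 and 3.70 FPKM in WYG7. With a log2 fold change of 1.94 ± 0.11 (adjusted p = 2.48e-06), it showed the largest increase among the 36 on this scale. Since its name rests on similarity alone, its own substrate is not known from these data. The one listed gene of the brassinosteroid signalling list, described as a probable BRI1 kinase inhibitor 1 (LOC4347277), was lower, with 1.46, 1.95 and 1.66 FPKM in PIF4v3m and 4.16, 3.83 and 3.22 FPKM in WYG7.

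Gibberellins drive stem and leaf growth, and CYP714 enzymes modify them, several of them lowering their activity. There were 6 listed CYP714 genes, 4 higher and 2 lower in PIF4v3m, beside 45.8% higher and 54.1% lower among all listed genes. The 2 rice gibberellin 13-oxidases parted. CYP714B2 (LOC4332734) had 1.84, 2.71 and 2.24 FPKM in PIF4v3m and 6.33, 9.76 and 7.31 FPKM in WYG7, and fell by 1.42 ± 0.18 on the log2 scale (adjusted p = 9.32e-05). CYP714B1 (LOC4344303) had 0.663, 0.958 and 0.721 FPKM in PIF4v3m and 0.176, 0.331 and 0.415 FPKM in WYG7, and rose by 0.45 ± 0.10 (adjusted p = 0.00293). CYP714B2 was the more abundant of the pair in every library. Their sum in each line is therefore set mainly by CYP714B2.

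CYP714D1 (LOC4339131) is the EUI gene, whose product inactivates gibberellins and whose loss lengthens the uppermost internode of rice. It had 0.382, 0.391 and 0.315 FPKM in PIF4v3m and 0.829, 0.651 and 0.924 FPKM in WYG7. These low values do not overlap, as for 99.4% of listed genes. The log2 fold change was -0.40 ± 0.09 (adjusted p = 0.00228), a call lost under quantile scaling (-0.16, adjusted p = 0.124). All 3 CYP714C genes rose. CYP714C2 (LOC4351346) had 2.64, 2.62 and 2.78 FPKM in PIF4v3m and 1.3, 0.835 and 0.748 FPKM in WYG7, a log2 fold change of 0.92 ± 0.14 (adjusted p = 0.000261). CYP714C3 (LOC9270841) had 0.984, 0.879 and 1.08 FPKM in PIF4v3m and 0.174, 0.323 and 0.364 FPKM in WYG7. CYP714C1 (LOC4351345) had 0.407, 0.589 and 0.451 FPKM in PIF4v3m and 0.0648, 0.118 and 0.0718 FPKM in WYG7. For all 3 genes every PIF4v3m library lay above every WYG7 library, although CYP714C1 and CYP714C3 stayed near or under 1 FPKM. The lines were likewise apart for nearly all listed genes. Across the 6 genes, summed FPKM was 6.91, 8.15 and 7.59 in PIF4v3m and 8.87, 12 and 9.84 in WYG7.

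Other listed enzymes of gibberellin metabolism included 1 higher and 4 lower, beside 45.8% higher and 54.1% lower among all listed genes. Gibberellin 20 oxidase 2 (LOC4325003), which makes the precursors of active gibberellins, had 2.21, 2.25 and 2.61 FPKM in PIF4v3m and 19.4, 20.8 and 17.5 FPKM in WYG7, a log2 fold change of -2.59. The 3 listed gibberellin 2-beta-dioxygenases, which deactivate gibberellins, were lower by 0.60 to 1.05 on the same scale, and ent-copalyl diphosphate synthase 1 (LOC4329013), of an early step, rose by 0.84. Ent-kaurenoic acid oxidase (LOC4339885), a P450 of the synthesis described by its function, had 3.49, 3.04 and 2.95 FPKM in PIF4v3m and 0.930, 1.47 and 1.02 FPKM in WYG7.

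**Figure D2:**
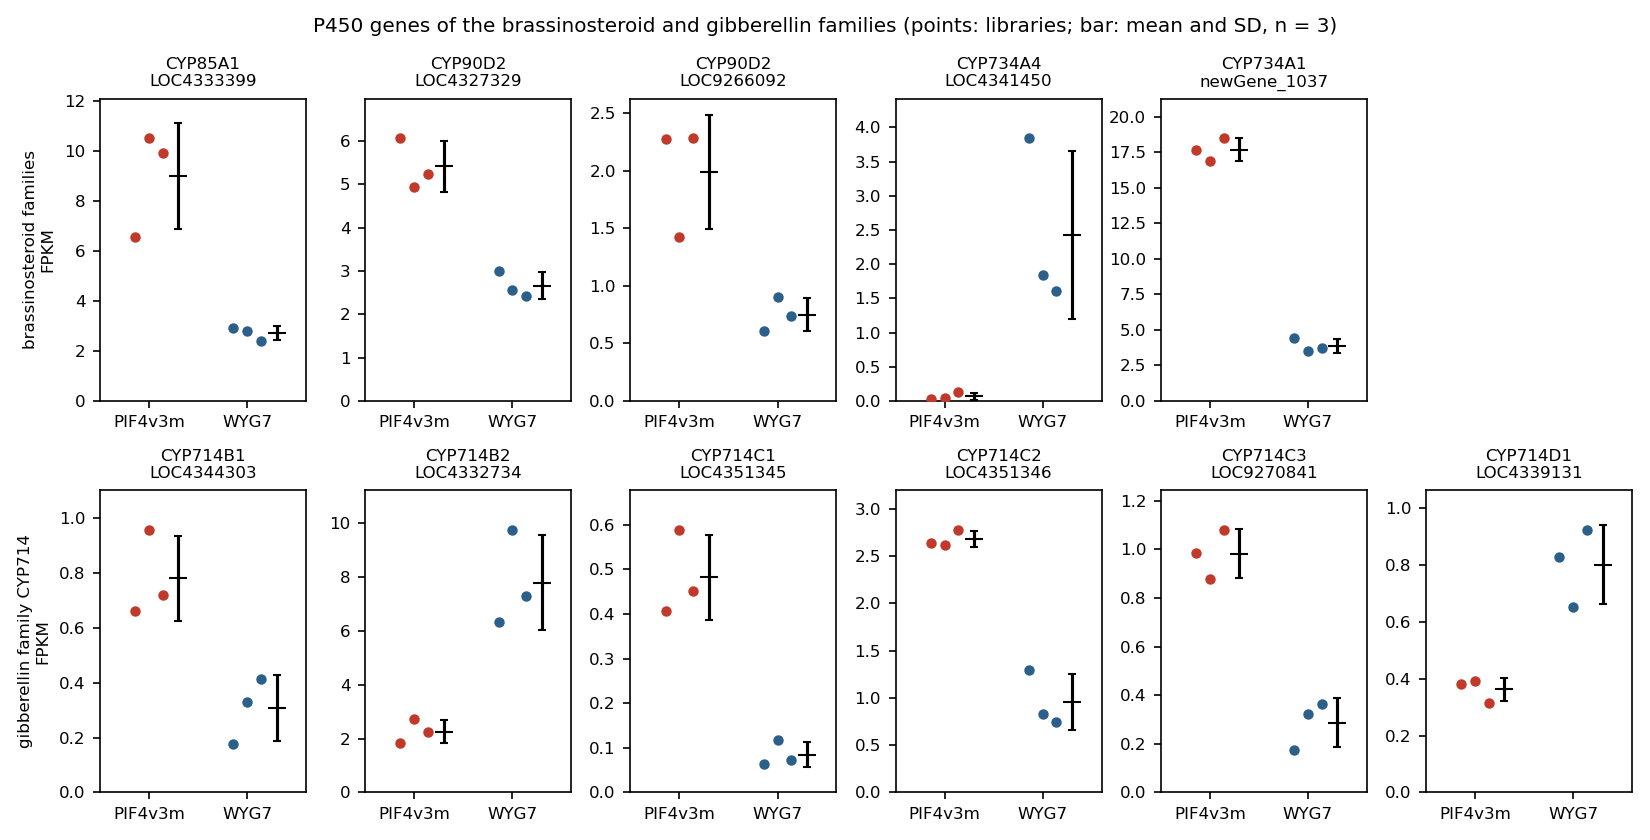
FPKM of the 5 P450 genes of brassinosteroid families (top) and the 6 CYP714 genes (bottom), with 3 PIF4v3m libraries left of 3 WYG7 libraries in each panel and a bar for the mean and SD (n = 3). Each panel has its own axis starting at 0. CYP734A4, CYP714B2 and CYP714D1 are lower in PIF4v3m and the other 8 genes are higher.

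All 3 genes described as CYP78A5 fell, beside 54.1% of all listed genes. In Arabidopsis CYP78A5 is known as KLUH, which promotes the growth of leaves and floral organs. The abundant gene LOC4350534 had 13.5, 22.9 and 13.5 FPKM in PIF4v3m and 67.5, 71.3 and 73.9 FPKM in WYG7. Its mean was 16.7 ± 5.42 FPKM in PIF4v3m and 70.9 ± 3.25 FPKM in WYG7 (SD, n = 3), and the log2 fold change was -2.06 ± 0.19 (adjusted p = 1.83e-05). LOC4333404 had 0.764, 0.908 and 0.646 FPKM in PIF4v3m and 1.64, 2.95 and 2.08 FPKM in WYG7. LOC4333118 was listed at 0 in 2 PIF4v3m libraries and at 0.0169 FPKM in the other, against 0.626, 0.352 and 0.434 FPKM in WYG7. As markers of dividing cells, 21 listed genes were taken by name alone (cyclins, kinesins and histones), so not each of them need mark division. Of these 21 genes, 17 were higher and 4 lower, beside 45.8% higher among all listed genes. Their summed FPKM was 121 to 127 in PIF4v3m and 99.5 to 114 in WYG7, and their part in the CYP78A values was not tested. One of the 21, a KIN-13B kinesin, was listed at 0 in a single WYG7 library.

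The CYP72 family was the largest in which all genes moved one way, with 5 of 5 CYP72A genes lower in PIF4v3m (54.1% of all listed genes were lower). All 5 passed 2-fold, but CYP72A14 (LOC4323921) was at -0.96 and CYP72A13 (LOC4326659) at -0.83 on the log2 scale under quantile scaling, LOC4323921 was at -0.98 with a common total, and CYP72A13 was at -0.94 without PIF4v3m replicate 1 and at -0.87 without WYG7 replicate 2. CYP72A enzymes of other plants act on terpenoids and on gibberellins, and the substrates of these 5 rice genes are not given by their descriptions. One of the 2 genes described as CYP72A14 (LOC4326664) had 1.68, 1.71 and 1.58 FPKM in PIF4v3m and 20.5, 12.1 and 11 FPKM in WYG7. It fell by 2.50 ± 0.21 on the log2 scale (adjusted p = 1.35e-05) and by 2.24 without WYG7 replicate 1. CYP72A11 (LOC4326663) had 6.22, 6.51 and 8.11 FPKM in PIF4v3m and 21.6, 20.3 and 14.5 FPKM in WYG7. CYP72A15 (LOC4326660) had 0.0857, 0.15 and 0.476 FPKM in PIF4v3m and 4.76, 1.95 and 2.00 FPKM in WYG7, and its WYG7 replicate 1 stood well above the others. Without that library the log2 fold change was -1.28, against -1.6 ± 0.26 with it (adjusted p = 0.000418). The other CYP72A14 gene (LOC4323921) fell by 1.11 ± 0.12 and CYP72A13 (LOC4326659) by 1.09 ± 0.22. Summed over the family, FPKM was 12.5, 13.5 and 16.1 in PIF4v3m and 61.1, 48.3 and 40 in WYG7.

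The CYP72A genes also lie together. In the gene order of the RefSeq assembly ASM3414082v1, in which 33 of the 36 genes were found, CYP72A13, CYP72A15, CYP72A11 and CYP72A14 (LOC4326664) occupy a stretch of 6 annotated genes on chromosome 1, and all 4 fell while the other 2 genes of the stretch were not in the list. Within 10 genes of each other, 5 further groups of the 36 were found. CYP714C1 and CYP714C2 are direct neighbours on chromosome 12 and both rose, and CYP84A1 and CYP89A2 (LOC4349105) on chromosome 10 both fell, with 7 genes between them. In the other 3 groups the neighbours moved in opposite directions.

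On chromosome 2, 2 genes described as CYP81Q32 stand with 1 gene between them. LOC4329425 had 0.0367, 0.158 and 0.168 FPKM in PIF4v3m and 0.504, 0.760 and 0.408 FPKM in WYG7, a log2 fold change of -0.47 ± 0.10 (adjusted p = 0.00181). LOC4329427 had 7.63, 6.18 and 8.09 FPKM in PIF4v3m and 1.79, 1.2 and 1.84 FPKM in WYG7, and rose by 1.67 ± 0.16 (adjusted p = 2.23e-05). Another CYP81Q32 gene, which was not found in the RefSeq gene order (LOC4334182), had 1.83, 0.435 and 1.12 FPKM in PIF4v3m and 0.370, 0.0991 and 0.240 FPKM in WYG7. The PIF4v3m libraries of this gene spread widely, and its log2 fold change of 0.74 ± 0.22 (adjusted p = 0.0114) ranged from 0.50 to 0.99 when single libraries were left out. CYP71A1 (LOC4327182) and CYP736A117 (LOC4327184) on chromosome 1 formed the next such pair, with 6.79, 5.04 and 5.67 FPKM in PIF4v3m and 14.9, 12.5 and 10.4 FPKM in WYG7 for CYP71A1. CYP736A117, which is also described as a CYP71A1 in the NR annotation, had 16.5, 18.7 and 21.4 FPKM in PIF4v3m and 9.32, 10.2 and 8.82 FPKM in WYG7. On chromosome 3 the brassinosteroid gene CYP85A1, which rose, lies near the CYP78A5 gene LOC4333404, which fell.

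**Figure D3:**
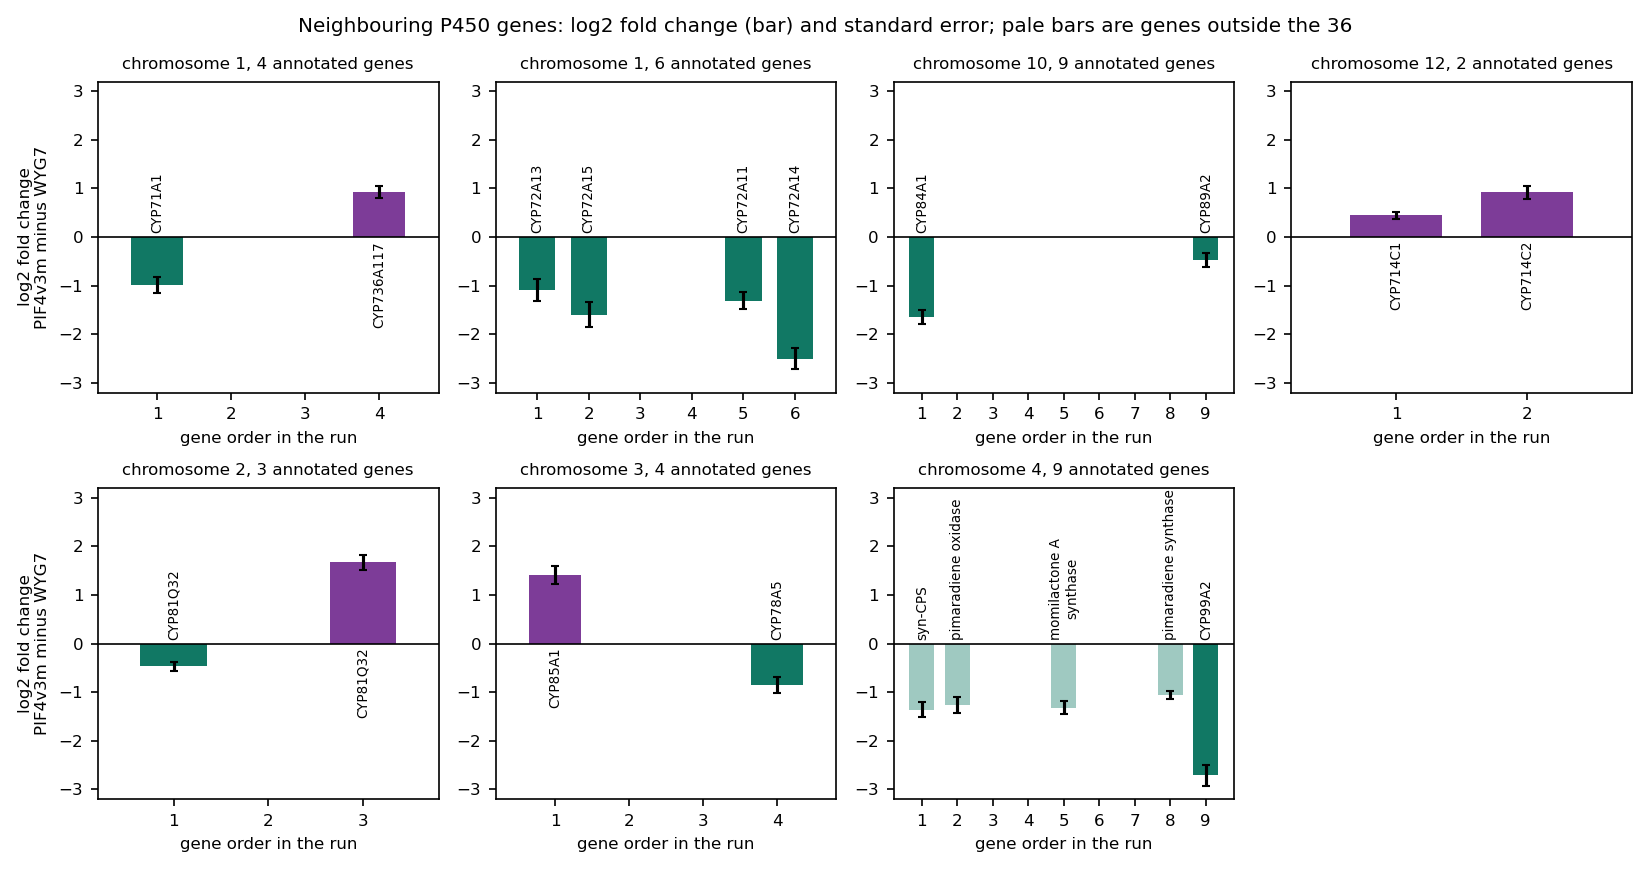
Log2 fold change (PIF4v3m minus WYG7, bar) and standard error of P450 genes that lie within 10 annotated genes of each other, by their order in each stretch of the RefSeq gene order. Pale bars are genes of the momilactone stretch outside the 36, and places without a bar are genes that were not listed or belong to neither group. The 4 CYP72A genes on chromosome 1 and the 5 genes on chromosome 4 are lower in PIF4v3m, and 3 of the other stretches hold 1 higher and 1 lower gene.

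CYP99A2 (LOC4335096), an enzyme of the momilactone cluster, which makes diterpenoid phytoalexins of rice, showed the largest decrease among the 36. It had 0.0404, 0 and 0.0508 FPKM in PIF4v3m and 8.85, 4.42 and 4.74 FPKM in WYG7. It was at or near 0 in every PIF4v3m library, and the log2 fold change was -2.71 ± 0.22 (adjusted p = 1.11e-05) and -2.44 without WYG7 replicate 1. The stretch of 9 annotated genes around it on chromosome 4 holds 4 more listed genes of momilactone synthesis. All 4 fell, beside 54.1% of all listed genes. Enzymes outside the P450s were placed in the gene order for this pathway only. Syn-copalyl diphosphate synthase (LOC4335090), of the first committed step, changed by -1.36, the P450 9-beta-pimara-7,15-diene oxidase (LOC4335091) by -1.26, momilactone A synthase (LOC4335093) by -1.32 and 9-beta-pimara-7,15-diene synthase (LOC4335094) by -1.06 on the log2 scale. The remaining 4 genes of the stretch were not listed. Of the 2 further genes described as momilactone A synthase outside the stretch, LOC4344199 fell by 0.71 and LOC4344208 rose by 1.23.

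Among the 36, both P450 genes of the route to lignin precursors fell, beside 54.1% of all listed genes. CYP98A1 (LOC4339188), which hydroxylates coumaroyl esters, had 8.02, 6.95 and 7.99 FPKM in PIF4v3m and 33.6, 26.0 and 24.8 FPKM in WYG7. The log2 fold change was -1.74 ± 0.13 (adjusted p = 7.98e-06). CYP84A1 (LOC4349097), described by the ferulate 5-hydroxylase of Arabidopsis, which leads to syringyl lignin there, had 0.255, 0.373 and 0.318 FPKM in PIF4v3m and 3.88, 2.86 and 2.63 FPKM in WYG7, a log2 fold change of -1.64 ± 0.14 (adjusted p = 1.3e-05). Around them, 22 other listed enzymes of the phenylpropanoid route were 5 higher and 17 lower, beside 45.8% higher and 54.1% lower among all listed genes. Their median was -1.54, beside -0.56 over all listed genes. These 22 enzymes summed to 119, 113 and 129 FPKM in PIF4v3m and to 384, 241 and 242 FPKM in WYG7, so WYG7 replicate 1 was the highest here too. Phenylalanine ammonia-lyase, the entry enzyme, had 7 listed genes, of which LOC4330034 (1.09, 1.04 and 1.76 FPKM in PIF4v3m, 55.6, 29.0 and 31.5 FPKM in WYG7) fell the most on log2(FPKM + 1) and LOC4352358 was the one that rose. Both genes of trans-cinnamate 4-monooxygenase, the P450 of the next step, fell, and LOC4338409 had 13.6, 14.1 and 15 FPKM in PIF4v3m and 49.4, 31.3 and 28.2 FPKM in WYG7.

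**Figure D4:**
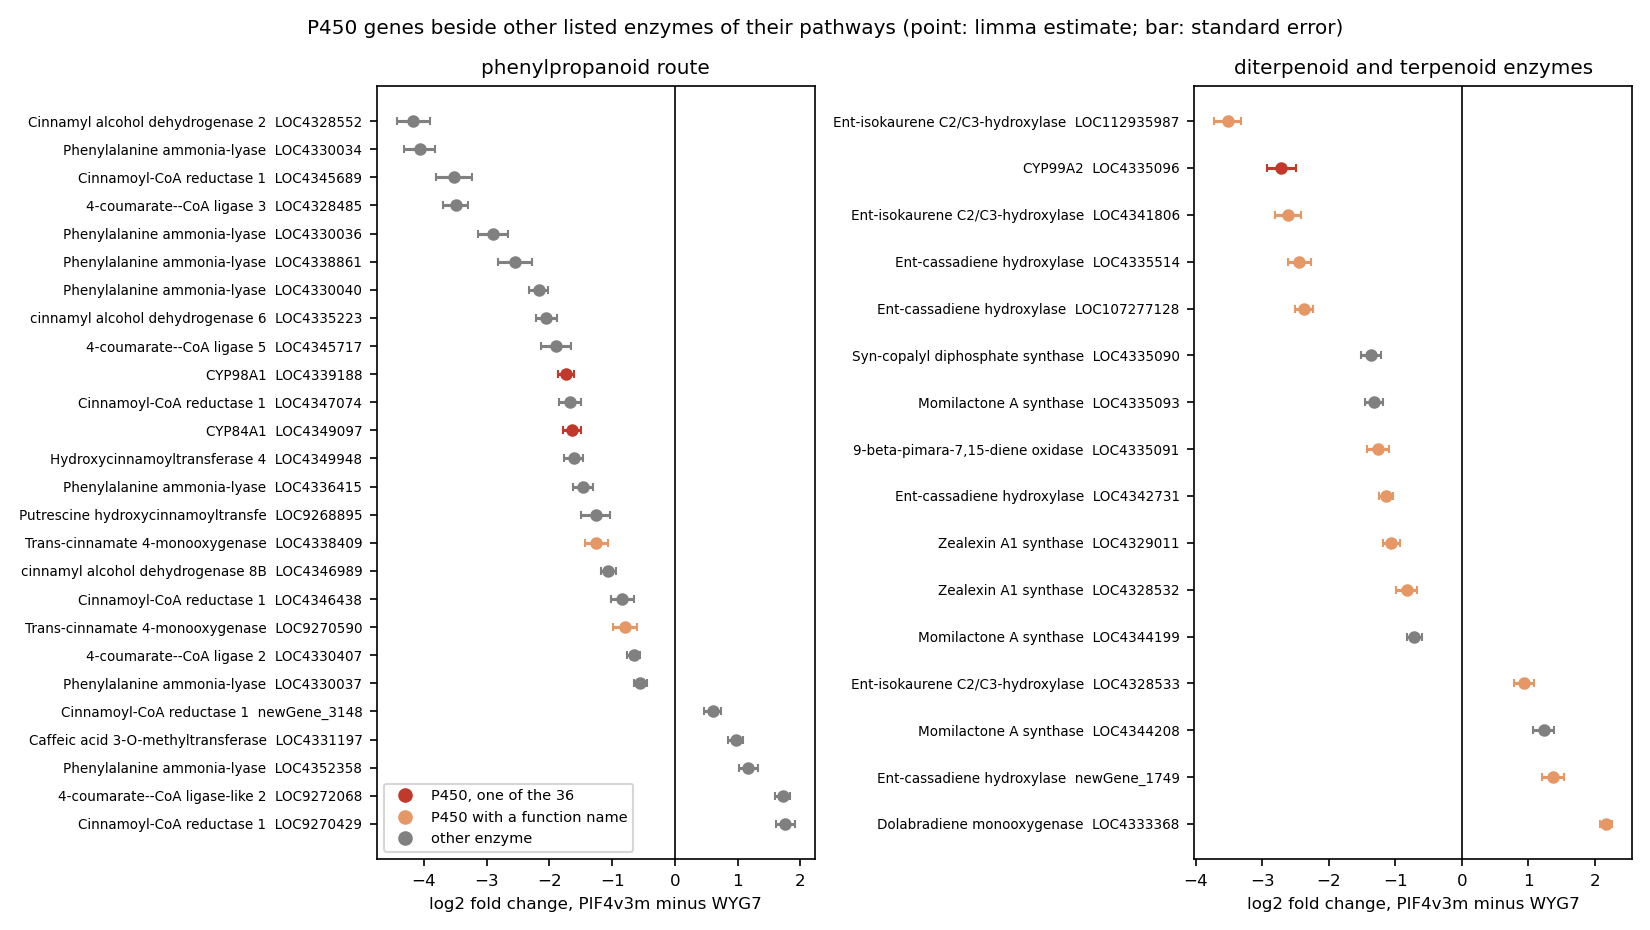
Log2 fold change (PIF4v3m minus WYG7) and standard error of listed enzymes of the phenylpropanoid route (left) and of diterpenoid and related terpenoid synthesis (right), ordered by value. The listed 9-beta-pimara-7,15-diene synthase (LOC4335094, -1.06) is not drawn. Red points are the P450 genes of the 36, orange points are P450 genes described by a function, and grey points are other enzymes. On the left, CYP98A1, CYP84A1, both trans-cinnamate 4-monooxygenases and 17 other enzymes are below 0 and 5 other enzymes are above 0, and CYP99A2 (-2.71) has the second lowest value on the right.

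The CYP94 and CYP704 families hydroxylate fatty acids, and CYP94B enzymes of Arabidopsis deactivate the jasmonate hormone. Of their 3 listed genes, 1 rose and 2 fell, beside 45.8% higher and 54.1% lower among all listed genes. LOC9266794, described as CYP94A1 of Vicia sativa in Swiss-Prot and as CYP94B3 in the NR annotation, had 9.27, 7.38 and 10.8 FPKM in PIF4v3m and 4.68, 4.37 and 3.99 FPKM in WYG7, a log2 fold change of 0.91 ± 0.15 (adjusted p = 0.000399). LOC9272160, with the descriptions CYP94A2 and CYP94B3, had 0.441, 0.164 and 0.106 FPKM in PIF4v3m and 1.08, 0.934 and 0.636 FPKM in WYG7. CYP704C1 (LOC4336728) had 2.59, 1.88 and 2.06 FPKM in PIF4v3m and 9.85, 4.66 and 5.32 FPKM in WYG7, with WYG7 replicate 1 far above the others. Its log2 fold change was -1.21 ± 0.24 (adjusted p = 0.00132), and -0.92 without that library. Of 5 listed cutin and wax enzymes outside the P450s, 3 were higher and 2 lower (45.8% and 54.1% of all listed genes).

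Among the families without a role that is sure in rice, the 2 CYP89A2 genes differed in both level and direction. LOC4344671 had 52.3, 49.2 and 61.1 FPKM in PIF4v3m and 30.0, 22.7 and 23 FPKM in WYG7, and rose by 1.08 ± 0.13 on the log2 scale (adjusted p = 9.08e-05). LOC4349105 had 0.292, 0.366 and 0.184 FPKM in PIF4v3m and 1.18, 0.788 and 0.434 FPKM in WYG7. Its gap between the lines was small, its log2 fold change of -0.47 ± 0.15 had the largest adjusted p of the 36 (0.0134), and the call was lost under quantile scaling (-0.25, adjusted p = 0.0949). CYP709B2 (LOC4344026) had 13.3, 10.4 and 12.5 FPKM in PIF4v3m and 3.39, 2.87 and 3.66 FPKM in WYG7, a log2 fold change of 1.6 ± 0.13 (adjusted p = 1.22e-05). The new gene described as CYP71A1 of avocado (newGene_3177) had 1.46, 0.954 and 1.44 FPKM in PIF4v3m and 7.38, 5.17 and 6 FPKM in WYG7, and fell by 1.65 ± 0.16 (adjusted p = 2.85e-05). CYP716B1 and CYP87A3 were both scarce in one line, CYP716B1 rising and CYP87A3 falling in PIF4v3m. CYP716B1 (LOC4343273), of a family that oxidizes triterpenoids in many plants, had 0.841, 1.83 and 2.20 FPKM in PIF4v3m and 0.393, 0.668 and 0.428 FPKM in WYG7. CYP87A3 (LOC9271617), known as an auxin-responsive gene of rice coleoptiles, was listed at 0, 0.0709 and 0.0489 FPKM in PIF4v3m, against 1.35, 0.968 and 1.16 FPKM in WYG7.

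No P450 reductase and no other redox partner on the list of such partners was among the listed genes. The 29 P450 genes described by function were 9 higher and 20 lower (69.0% lower), with a median log2 fold change of -0.94. With them, 24 of all 65 listed P450 genes were higher and 41 lower (63.1% lower). Over all listed genes, 45.8% were higher and 54.1% lower, with a median of -0.56. Abscisic acid 8'-hydroxylases, which break down the drought hormone abscisic acid, were split. LOC4345810 had 2.80, 4.23 and 3.36 FPKM in PIF4v3m and 11.7, 14.8 and 16 FPKM in WYG7, and LOC4347261 had 5.92, 7.42 and 6.89 FPKM in PIF4v3m and 17.4, 19.8 and 18.8 FPKM in WYG7. The third, LOC4337528, was higher, with 9.07, 7.48 and 9.01 FPKM in PIF4v3m and 3.14, 3.92 and 3.84 FPKM in WYG7. Of the P450 genes named for phytoalexin diterpenes, an ent-isokaurene C2/C3-hydroxylase gene (LOC112935987) had 0.815, 1.32 and 0.627 FPKM in PIF4v3m and 27.1, 18.7 and 17.6 FPKM in WYG7, the lowest fold change of all 65 on log2(FPKM + 1), at -3.52, although 8 other P450 genes near 0 FPKM in PIF4v3m fell further by the ratio of mean FPKM. A dolabradiene monooxygenase gene (LOC4333368) had the highest on the same scale (2.17), with 33.2, 29.7 and 31.3 FPKM in PIF4v3m and 6.38, 5.97 and 6.32 FPKM in WYG7. Other P450 genes named for phytoalexin diterpenes went both ways on this scale. Of those described as ent-isokaurene C2/C3-hydroxylase, LOC4341806 fell by 2.61 and LOC4328533 rose by 0.93. Of those described as ent-cassadiene hydroxylase, LOC4335514 fell by 2.44, LOC107277128 by 2.37 and LOC4342731 by 1.14, and newGene_1749 rose by 1.37. Of 5 listed cytokinin enzymes, 2 were higher and 3 lower (45.8% and 54.1% of all listed genes). Markers of guard cells and of senescing leaves were not among the listed genes, and the one root marker, a Casparian strip protein (LOC107276110), had 23, 25.4 and 19.2 FPKM in PIF4v3m and 5.88, 6.79 and 5.41 FPKM in WYG7.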

How the data were processed

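Leaf RNA of 3 PIF4v3m and 3 WYG7 libraries was sequenced. The authors deposited FPKM per gene and library. The deposited table also has a log2 fold change and an FDR, an adjusted p-value of the authors, which served here only to see that all 2995 listed genes pass an FDR under 0.01 and an absolute log2 fold change over 1. In the paper, STAR aligned the reads, Cufflinks quantified genes and DESeq2 called them. Bowtie 0.12.2, HISAT2 2.0 and StringTie 1.3.0 appear instead in what the submitters noted on processing, with a mouse build (mm8), so tools and build are not settled and no coordinates are given. The paper lists read totals per library, which are not used here, and the reads behind single FPKM values were not worked out here.

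P450 genes and all gene lists were chosen with earlier results of these data known. Genes with a mean above 0.01 FPKM, which was every listed gene, were tested on log2(FPKM + 1) by limma 3.58.1 (R 4.3.3) with a mean-variance trend, without covariates and two-sided, at an adjusted p (Benjamini-Hochberg, over the listed genes) under 0.05. An exact permutation test of 3 against 3 libraries cannot go below 0.1. The scripts were tested on simulated data. A full gene table had been assumed when the design was written, and the planned description of protein and promoter sequences was not made here. The rule for named genes takes the 12 largest changes in each direction among genes that reach a mean of 1 FPKM in either line, all hormone and phenylpropanoid families and the most abundant gene of each line, which gave 29 genes. The 7 other P450 genes, and genes outside the 36, were named after their values were seen. Alternatives were pseudocounts of 0.1 and 0.01 FPKM, other filters and scalings, limma without trend, with library weights or with a replicate block, each library left out, an adjusted p under 0.01 and a wider P450 definition. Gene order came from RefSeq (ASM3414082v1), which held 2759 of the gene IDs, and 195 IDs are new genes of the authors. Python 3.11.15, pandas 2.3.3, scipy 1.17.1 and matplotlib 3.10.9 were used.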

Additional observations from a re-analysis of the deposited data

How the results depend on the processing

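The number of P450 genes higher (15) and lower (21) in PIF4v3m stayed at 15 and 21 when single libraries were left out, while the number more than 2-fold higher ran from 4 to 7, that more than 2-fold lower from 12 to 15, and the median log2 fold change from -0.59 to -0.48. The 2-fold counts rest on the scale, as fold changes of low genes shrink with the pseudocount. A pseudocount of 0.1 FPKM gave 13 and 20 (median -1.22), and 0.01 FPKM gave 14 and 21 (median -1.35). They were 9 and 10 under quantile scaling, which moved the median of all listed genes by 0.229 on the log2 scale, and 8 and 13 with a common total. Over the 28 genes that reached a mean of 1 FPKM in either line, the median was -1.02. With the wider definition of 65 P450 genes, 24 were higher, 41 lower, 12 more than 2-fold higher and 28 more than 2-fold lower (median -0.83). Over all listed genes, 45.8% were higher, 54.1% lower, 26.6% more than 2-fold higher and 33.9% more than 2-fold lower (median -0.56). Of 568 values of single genes under these alternatives, 564 kept their direction and call, 4 lost the call and 0 turned. They include a fit without the filter on low values, which equals the main fit because every listed gene passes that filter. They also include the adjusted p limit of 0.01, which reuses the main fit and cannot turn a direction. The list holds only genes that the authors called between the same lines, so kept calls are no independent evidence of a change. The lost calls were those of CYP89A2 (LOC4349105) and CYP714D1 under quantile scaling and of CYP89A2 (LOC4349105) and CYP81Q32 (LOC4334182) at an adjusted p under 0.01.

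The lines share replicate numbers, and a fit with the number as a replicate block gave 15 higher, 21 lower, 5 and 14 by more than 2-fold and a median of -0.51. Deviations of libraries with the same number correlated at -0.068, 0.003 and -0.097, and those with different numbers at -0.003 to 0.086. These values cannot show whether libraries of one number were grown or prepared together, which is not stated. FPKM without read counts gives no precision for single low values, and 8 genes stayed under 1 FPKM in both lines.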
